A study of Mus musculus with 3 samples.

Results

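The regions described here are those that start between 145 and 148 Mb on the distal part of mouse chromosome 4 (build mm9), a block of 3 Mb. They were taken from 3 lists of enriched regions made by chromatin immunoprecipitation and sequencing (ChIP-seq) of mouse embryonic stem (ES) cells, which are pluripotent cells of the early embryo. The block held 1072 of 45956 control regions, 1153 of 22031 ZFP57 regions and 1448 of 20870 KAP1 regions, or 3673 of 88857 regions in all. The block was chosen by its counts, since an earlier look at these lists found more KAP1 than control regions in it. Its counts are therefore a description and no test is made of them.

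The control library was an HA ChIP in ES cells without a transgene. The ZFP57 library was made with the same HA antibody in ES cells expressing HA-tagged ZFP57. The KAP1 library came from E14 ES cells that carried no transgene, with the RBCC antibody to KAP1. Neither the line of the other two cultures nor the promoter of the transgene is given in the sources used here. Each group holds 1 library, so no spread between replicates could be measured and no test between the libraries was possible. The deposited lists give no height or score, sequencing depth is unknown, and every region is 150 bp wide.

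KAP1, also called TRIM28, is a corepressor that has no DNA-binding domain for specific sequences. It is brought to DNA by KRAB zinc finger proteins, a large family that includes ZFP57, and in turn recruits enzymes that place the repressive histone mark H3K9me3. KRAB zinc finger genes arose by repeated duplication and lie in clusters of near-identical genes, and both such clusters and endogenous retroviruses are known places of KAP1 binding in ES cells. Distal mouse chromosome 4 is known to carry one of these clusters. The RefSeq table of build GRCm38.p6 lists 28 genes named Zfp followed by a number on chromosome 4. Of these 16 form 1 run with at most 24 other listed genes between neighbours: Zfp990, Zfp980, Zfp987, Zfp600, Zfp992, Zfp981, Zfp993, Zfp978, Zfp991, Zfp988, Zfp982, Zfp985, Zfp979, Zfp534, Zfp984 and Zfp933. The run spans 77 listed genes, 52 of them pseudogenes. Because the regions are in another build, no region was assigned to any of these genes, and the names serve as background.

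The block listed 1.35 KAP1 regions for each control region (95% interval for counting error 1.25 to 1.46) and 1.26 for each ZFP57 region, while the ratio of ZFP57 to control was 1.08 (0.989 to 1.17). Regions of all 3 lists filled the first 2.2 Mb of the block and were sparse after it. From 145 to 147.2 Mb there were 1442 KAP1, 1143 ZFP57 and 1052 control regions. From 147.2 to 148 Mb there were 6 KAP1, 10 ZFP57 and 20 control regions, so there the order of the lists was turned around. The neighbouring 3 Mb on either side looked like this sparse end: 27 KAP1, 33 ZFP57 and 74 control regions lay from 142 to 145 Mb, and 16, 28 and 89 from 148 to 151 Mb. KAP1 regions covered 7.21% of the block, ZFP57 regions 5.73% and control regions 5.34%.

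In 100 kb steps, KAP1 regions outnumbered control regions in 22 of 30 steps, which were the first 22. Over the whole genome this held in 10.7% of the steps with a region in any list, and in 66.7% of the 189 steps with 20 or more KAP1 regions. The 22 steps are among those 189, since each held between 22 and 105 KAP1 regions (median 60). KAP1 regions also outnumbered ZFP57 regions in 23 of 30 steps, against 18.8% of all steps with a region in any list. In the first 22 steps, the dense ones of the block, this held in 21, against 76.2% of the 189 dense steps. ZFP57 and control counts differed little: ZFP57 was higher in 15 of the first 22 steps, equal in 2 and lower in 5. The whole lists are of unequal length, however, with 22031 ZFP57 and 45956 control regions. Similar counts are thus unequal shares of these lists. The block held 5.23% of all ZFP57 regions and 2.33% of all control regions, beside 6.94% of all KAP1 regions. How often ZFP57 outnumbered control regions in steps of the whole genome was not computed.

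**Figure D1:**
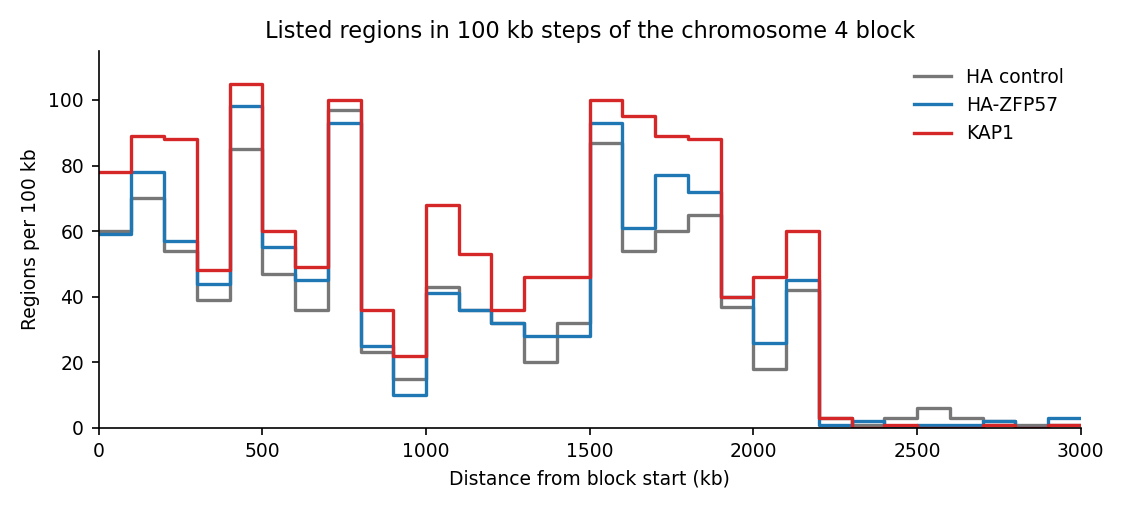
Regions per 100 kb (vertical axis) against distance from the start of the block in kb (horizontal axis), with 1 line for each of the 3 libraries. The KAP1 line lies above the control line in the first 22 steps and all lines fall to 6 or fewer regions after 2200 kb.

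The 5 steps with the most KAP1 regions began at 145.4, 145.7, 146.5, 146.6 and 145.1 Mb, the last tied with that at 146.7 Mb. The step at 145.4 Mb held 105 KAP1, 98 ZFP57 and 85 control regions. The step at 145.7 Mb held 100, 93 and 97, and the step at 146.5 Mb held 100, 93 and 87. The ratio of KAP1 to control regions in these was 1.24, 1.03 and 1.15. The step at 146.6 Mb had the highest ratio of these 5, 1.76, from 95 KAP1, 61 ZFP57 and 54 control regions, and the step at 145.1 Mb held 89, 78 and 70, with a ratio of 1.27.

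The 5 steps with the greatest difference between KAP1 and control regions began at 146.6, 145.2, 146.7, 147.0 and 146.3 Mb. At 145.2 Mb 88 KAP1 regions (exact 95% Poisson interval 70.6 to 108) stood beside 57 ZFP57 and 54 control regions (40.6 to 70.5). At 147.0 Mb there were 46 KAP1 (33.7 to 61.4), 26 ZFP57 and 18 control regions (10.7 to 28.4), and at 146.3 Mb 46 KAP1, 28 ZFP57 and 20 control regions (12.2 to 30.9). The step at 146.7 Mb held 89, 77 and 60. Poisson intervals of KAP1 and control lay apart in 4 of the 30 steps, those at 145.2, 146.3, 146.6 and 147.0 Mb. These intervals cover counting error in 1 library each and take regions as independent, although regions overlapped each other and recurred in copies. The block was chosen for having more KAP1 than control regions, so intervals that lie apart are no test of a difference. Over the first 22 steps the ratio of KAP1 to control regions ranged from 1.03 to 2.56, with a median of 1.39.

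The lists rose and fell together along the block. Over the 22 steps Spearman's rho was 0.93 between KAP1 and control counts, 0.97 between ZFP57 and control counts and 0.95 between KAP1 and ZFP57 counts. The steps share their sequence across the libraries, so these are descriptions.

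Regions were packed closely. The median distance between successive KAP1 starts was 609 bp. It was longer in the ZFP57 list, at 675.5 bp, and longest in the control list, at 757 bp. Over the whole lists the medians in the same order were 1341, 2868 and 14547 bp. In the block 68.1% of successive KAP1 starts, 61.5% of ZFP57 starts and 57.4% of control starts lay within 1 kb of each other. Joining regions whose edges lay within 500 bp gave 687 KAP1 stretches, of which 65 held 5 or more regions, and those held 30.6% of the KAP1 regions. The longest KAP1 stretch by number, chromosome 4 from 146793510 to 146799384, held 16 KAP1 regions with 14 ZFP57 and 13 control regions in the same 5875 bp. The longest ZFP57 stretch by number overlapped it, from 146793526 to 146801166, with 19 regions. Regions of 1 list also overlapped each other: 33 successive KAP1 starts were less than 150 bp apart.

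Between the stretches lay empty parts. The 5 longest without a region in any list were from 147834719 to 147907863 (73.1 kb), 145960520 to 146017557 (57.0 kb), 146260192 to 146315715 (55.5 kb), 145487649 to 145541041 (53.4 kb) and 145769049 to 145821677 (52.6 kb). The first is in the sparse end and the other 4 lie inside the dense part. Which of them are gaps of the assembly or sequence to which short reads cannot be mapped was not tested.

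About 1 in 2 KAP1 regions of the block coincided with both other lists. Of the 1448 KAP1 regions 699 overlapped a control and a ZFP57 region by at least 1 bp (48.3%, exact 95% interval 45.7 to 50.9%), compared with 36.8% of the whole KAP1 list. Another 130 overlapped a control region alone, 200 a ZFP57 region alone and 419 neither. Whole-list shares for overlap with a control region and with a ZFP57 region were 47.1% and 47.5%, and in the block they were 57.3% (829 regions) and 62.1% (899 regions). The 200 KAP1 regions on ZFP57 without the control made up 13.8%, against 10.6% of the whole list.

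Shares in the block differed more from the whole-list shares in the HA lists than in the KAP1 list. Of the control regions in the block, 700 of 1072 (65.3%) were in all 3 lists, against 16.6% of the whole control list, and 125 (11.7%) were in neither other list, against 71.9%. Of the ZFP57 regions 698 of 1153 (60.5%) were in all 3 lists, against 34.9%, and 127 were in neither other list, against 41.2% of the whole ZFP57 list. The KAP1 share in neither other list was 28.9%, against 42.2%. The block is dense in all 3 lists, and the whole lists differ in length, with 45956 control, 22031 ZFP57 and 20870 KAP1 regions. The part that density and list length alone play in these shares was not tested.

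**Figure D2:**
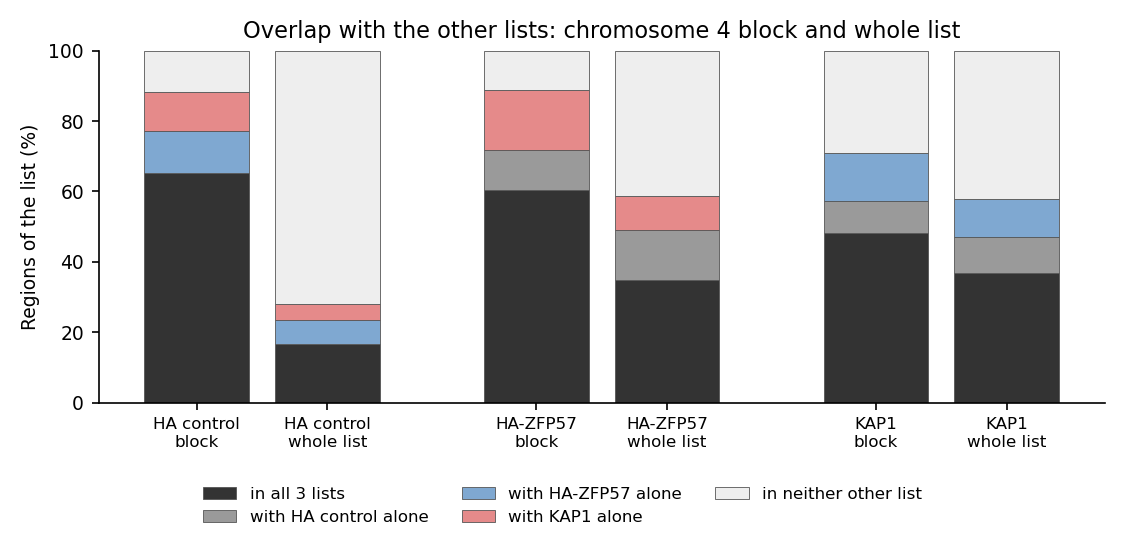
Share of each list's regions in percent (vertical axis) that overlapped regions of the other lists by at least 1 bp, for the block and for the whole list. The dark part, regions in all 3 lists, is 65.3%, 60.5% and 48.3% of the control, ZFP57 and KAP1 regions of the block, and the palest part, regions in neither other list, is widest in the block for KAP1 (28.9%).

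KAP1 regions with no control or ZFP57 region within 150 bp of their edges numbered 306 of 1448. This was 21.1% (exact 95% interval 19.1 to 23.3%), lower than the 36.7% of the whole KAP1 list. The regions next to this limit on the near side had gaps of 148, 148 and 149 bp, and those on the far side 151, 151 and 154 bp. Such KAP1 regions were seldom far from the other lists: 205 of the 306 (67.0%) had a control or ZFP57 region within 1 kb, compared with 26.4% of the 7654 in the whole list. In 4 of 306 the gap exceeded 10 kb, against 39.1% in the whole list. Control and ZFP57 regions were also closer together in the block, with median spacings of 757 and 675.5 bp against 14547 and 2868 bp in the whole lists. How much of these shares goes with that density was not tested.

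They were spread over the dense part of the block. In the first 22 steps their number ranged from 3 to 25 per step (median 13), and their share of KAP1 regions from 7.0% to 52.2% (median 23.3%). The highest share was in the step at 147.0 Mb, with 24 of 46 KAP1 regions, and the step at 145.9 Mb had 9 of 22. The lowest was in the step at 146.5 Mb, with 7 of 100. The share fell as the number of control and ZFP57 regions in the step rose (Spearman's rho -0.66 over 22 steps, a description). By Mb the share was 18.5% from 145 to 146 Mb, 21.2% from 146 to 147 Mb and 36.6% from 147 to 148 Mb, where 41 of 112 KAP1 regions stood without the others.

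They formed no large group of their own. No 1 kb stretch held more than 3 of them. The 2 with 3 regions ran from 145226738 to 145227385 (648 bp) and from 145232100 to 145232926 (827 bp), and the nearest regions of another list, both ZFP57, were 292 and 552 bp away. Both lie in the step at 145.2 Mb. The KAP1 region farthest from the other lists, from 147973130 to 147973279, lay 19357 bp from a ZFP57 and 57755 bp from a control region, in the sparse end. In the dense part the farthest were a neighbouring pair, from 146095474 to 146095623 and from 146097220 to 146097369, with gaps of 13135 and 11389 bp.

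Where regions of different lists overlapped in the block, KAP1 and ZFP57 midpoints were a median of 25 bp apart. The position of a ZFP57 midpoint against the KAP1 midpoint had no preferred direction (median 0 bp, 49.4% at the lower coordinate). Control midpoints instead lay a median of 18 bp lower than KAP1 midpoints and 19 bp lower than ZFP57 midpoints. They were the lower ones in 65.7% of 829 and in 71.8% of 827 overlaps. The whole lists gave medians of 18 bp against KAP1 (9838 overlaps) and 18 bp against ZFP57 (10800 overlaps), so this displacement of the control list was not particular to the block.

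Repeated distances were then sought as a sign of tandem copies. Every pair of regions of 1 list in the block at least 1 kb apart was counted by the distance between the starts, within 10 bp. Among 1046139 KAP1 pairs the commonest distance was 545362 bp, with 77 pairs. Distances within 1 kb of it had a mean of 13.5 pairs and at most 27, and 33 of the 77 were at exactly 545355 bp. The same exact distance recurred in the other lists, in 25 ZFP57 pairs and 24 control pairs. It was the commonest distance of the control list (49 pairs within 10 bp), and in the ZFP57 list it had rank 4 (41 pairs), after 3 distances under 2 kb with 41 to 47 pairs.

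The next 4 KAP1 distances were short, at 1153 bp (67 pairs), 2147 bp (54), 1546 bp (52) and 1444 bp (51). At such lengths many pairs were seen at any distance, with a mean of 31.8 to 32.9 within 1 kb of these. Beyond 100 kb the second commonest distance was 1134692 bp in the control list (29 pairs), 106224 bp in the ZFP57 list (30) and 116135 bp in the KAP1 list (43). These ranks do not allow for the fewer pairs seen at longer distances. In the kb of distance from 1134 kb the highest numbers were 29 control, 23 ZFP57 and 28 KAP1 pairs. In the kb before it they were 15, 17 and 23, and in the kb after it 12, 17 and 20.

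**Figure D3:**
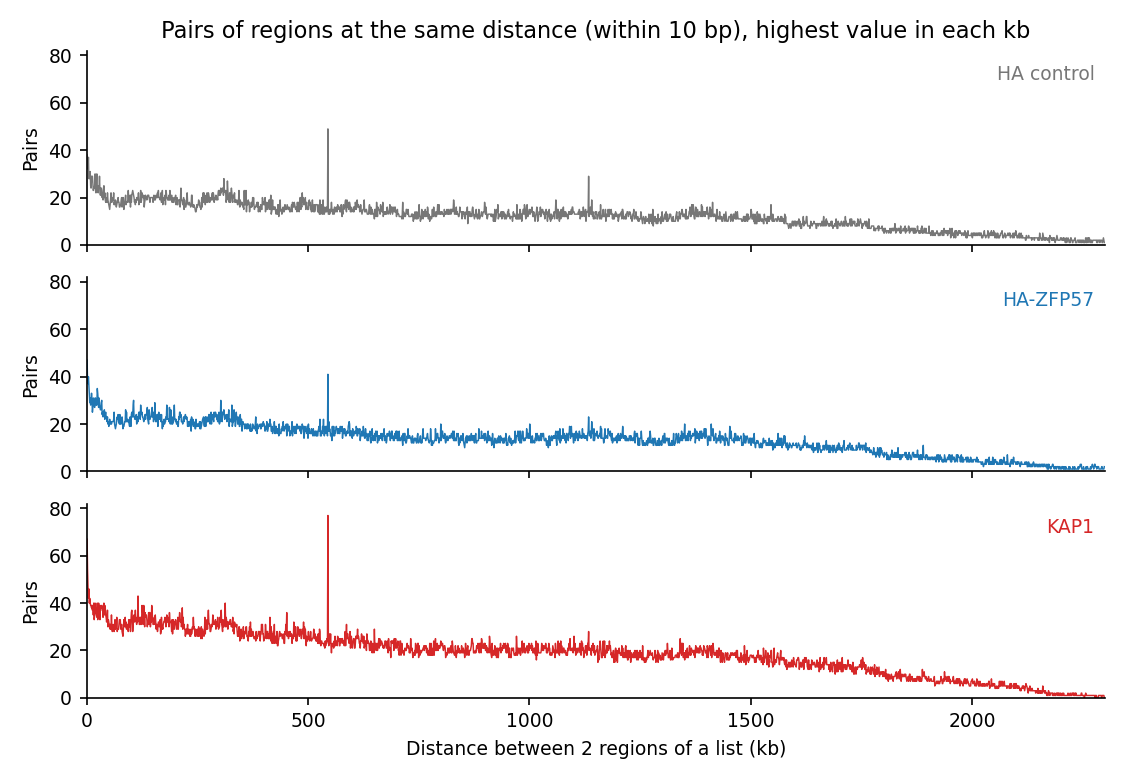
Number of pairs of regions of 1 list that lie at the same distance within 10 bp (vertical axis), as the highest value in each kb of distance (horizontal axis, kb), for control, ZFP57 and KAP1 from top to bottom. All 3 panels have a spike at 545 kb, of 49, 41 and 77 pairs.

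To place these pairs, runs of 4 successive spacings that occurred again within 10 bp each were searched in the same and in reversed order, and neighbouring runs at a like offset were joined. The result is a pair of stretches in which regions of a list follow each other at the same intervals, called a copy pair here, although their sequences were not compared. A copy pair was kept if it had at least 10 region pairs from at least 2 lists. There were 8, of which 4 were in the same order and 4 reversed.

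The leading copy pair joined chromosome 4 from 145821678 to 145960519 (138.8 kb) with 146367034 to 146505879, and was complete. All 58 KAP1 regions of the first stretch had a partner in the second within 10 bp, and the second held no other KAP1 region. The same was true of all 38 control and all 35 ZFP57 regions. The offset was 545356 bp for 27 regions up to 145858207, 545355 bp for 82 regions from 145858931 to 145925727, and 545360 bp for 22 regions from 145928558. With the regions of the 3 lists pooled, the offset changed by -1 bp in a gap of 0.723 kb and by 5 bp in a gap of 2.83 kb. The neighbours of a change differed between the lists. For the change by -1 bp they lay at 145846325 and 145859784 in the ZFP57 list. In the control list they lay at 145858207 and 145860285, and in the KAP1 list at 145858206 and 145858931. A shared place of change is thus possible, but the single lists do not fix it.

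Every region of the 3 lists had a partner at nearly the same offset. The counts were therefore bound to be equal in both stretches, and the classes of overlap almost so. The values that follow describe the stretches and are no further result. In each stretch 14 KAP1 regions were in all 3 lists, 10 were shared with the control alone, 8 with ZFP57 alone and 26 with neither, and 20 had no control or ZFP57 region within 150 bp. Their ratio of KAP1 to control regions was 1.53 in both. How reads that match several places were treated is not given in the sources used here, and whether both stretches list the same reads was not tested. They are not taken as independent counts. Leaving out the second stretch left 1390 KAP1, 1118 ZFP57 and 1034 control regions and a ratio of KAP1 to control of 1.34, against 1.35 with it. The share of KAP1 regions without the other lists was then 20.6% and the share in all 3 lists 49.3%, against 21.1% and 48.3% with it. The second stretch held 58 of the 1448 KAP1 regions, so large changes could not arise, and the other copy pairs were kept.

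The surroundings of the stretches differed. The first was bounded by 52.6 kb before and 57.0 kb after it without a region of any list, 2 of the 5 longest empty parts of the block. The second continued into other regions: the nearest lay 0.635 kb before and 8.80 kb after it. Within 30 kb the second had 24 KAP1, 15 ZFP57 and 5 control regions before it and 15, 15 and 13 after it, where the first had none.

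**Figure D4:**
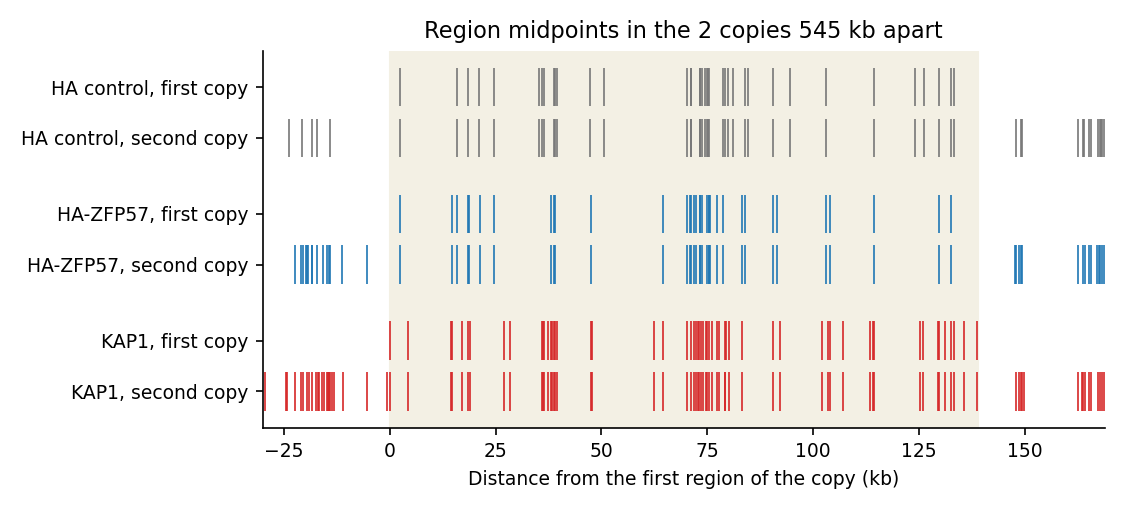
Midpoints of listed regions (vertical ticks) in the stretches 545 kb apart, aligned on the first region of each (horizontal axis, kb), with 1 row per library and copy. The shaded 138.8 kb show the same ticks in both copies in each library, and outside it ticks are seen beside the second copy and none beside the first.

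The other copy pairs were partial. The stretch from 145401863 to 145441983 (40.1 kb) recurred in the same order from 146536645 to 146576666, at offsets of 1134678 to 1134849 bp. Here 46 of 65 KAP1, 47 of 71 ZFP57 and 46 of 62 control regions of the first stretch had a partner. The stretch from 145361445 to 145417344 (55.9 kb) recurred reversed from 145541051 to 145597161, with partners for 48 of 60 KAP1, 42 of 58 ZFP57 and 23 of 47 control regions. Part of the latter, from 145542588 to 145559291, recurred reversed again from 146533890 to 146550666 (22 of 32 KAP1 regions). The stretch near 145.4 Mb thus had a counterpart in the step at 145.5 Mb in the opposite direction and a counterpart in the step at 146.5 Mb in its own direction, and these 2 were themselves reversed to each other.

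In the reversed pairs of 55.9 and 16.7 kb the control list fitted at another offset than the ZFP57 and KAP1 lists. With the offset of the joined runs, 5 of its 47 regions in the 55.9 kb stretch found a partner. With the sum of both starts moved by -36 bp, which is -18 bp for each region, 23 did. For the reversed pair of 16.7 kb the best value was -19 bp for each control region. ZFP57 and KAP1 regions fitted best between -3.5 and 0 bp in these 2 pairs. The value per control region is the same size as the 18 to 19 bp by which control midpoints lay below the others. The other 2 reversed pairs, of 9.91 and 2.93 kb, held 10 and 6 control regions in the first stretch, and their best values were 1 and 0 bp. Their joined runs held 5 and 6 control region pairs, which themselves set the offset near those regions. These 2 values therefore cannot show whether the control list was displaced there.

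The other 4 copy pairs were shorter, from 2.93 to 13.9 kb. The stretch from 145357041 to 145367787 (10.7 kb) recurred in the same order from 146223424 to 146234199, with 11 of 13 KAP1, 12 of 12 ZFP57 and 9 of 9 control regions. The stretch from 145317404 to 145331344 (13.9 kb) recurred in the same order from 146189359 to 146203292, with all of its 5 KAP1, 5 ZFP57 and 3 control regions. The reversed pairs were 145330829 to 145340736 with 145612390 to 145622388 (7 of 13 KAP1 regions), and 145723145 to 145726071 with 146558708 to 146561650 (6 of 6 KAP1 regions). Stretches that begin between 145.3 and 145.5 Mb took part in 5 of the 8 copy pairs.

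Partners in the longer partial pairs mostly shared their class. In the 40.1 kb pair 40 of 46 KAP1 partners overlapped the same other lists in both stretches (87.0%), in the reversed 55.9 kb pair 41 of 48 did (85.4%), and in the reversed 16.7 kb pair 19 of 22. In the reversed pair of 2.93 kb it was 3 of 6. Over the block 48.3% of KAP1 regions were in all 3 lists, so many KAP1 regions share a class without being partners. The share of like class among KAP1 regions that are not partners was not computed, so these values cannot show that class goes with the copies. Among the matched KAP1 regions of the 40.1 kb pair, 2 of 46 in the first stretch and 1 in the second had no control or ZFP57 region within 150 bp. In the reversed 55.9 kb pair these were 2 of 48 in the first and 4 in the second stretch, and in the leading pair 20 of 58 in both. All copy pairs together covered 522 kb (17.4% of the block) and held 27.9% of its KAP1, 29.7% of its ZFP57 and 29.6% of its control regions.

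**Figure D5:**
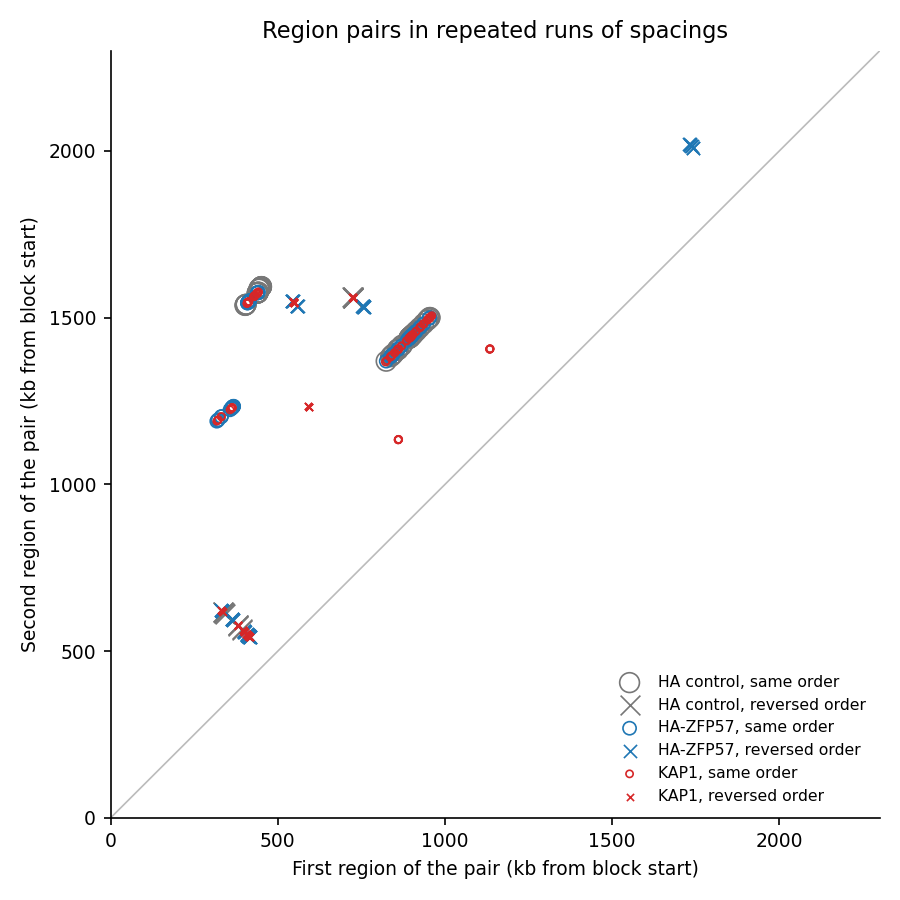
Pairs of regions in repeated runs of spacings, by the distance of the first (horizontal axis, kb) and the second region (vertical axis, kb) from the block start, with circles for runs in the same order and crosses for reversed runs, coloured by library. The long diagonal from 822 kb is the leading copy pair, and shorter rows crowd at first positions between 300 and 500 kb.

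Other dense blocks were set beside this one. On chromosome 12, from 22 to 25 Mb, 194 KAP1 regions stood beside 86 ZFP57 and 130 control regions, with 49.0% of KAP1 regions without a control or ZFP57 region within 150 bp and 10.8% in all 3 lists. On chromosome 7, from 9 to 11 Mb, the counts in the same order were 325, 191 and 212, with 31.7% and 35.7%. On chromosome 17, from 6 to 7 Mb, they were 720, 711 and 777, with 2.92% and 60.6%. The chromosome 4 block, at 21.1% and 48.3%, fell between those of chromosomes 7 and 17 in both. Each block also had a long distance of its own that recurred, of 719266 bp in 48 KAP1 pairs on chromosome 7, 298324 bp in 8 on chromosome 12 and 166027 bp in 44 on chromosome 17. The median number of KAP1 pairs per distance beyond 100 kb was 6 on chromosome 4, 0 on chromosomes 7 and 12, and 4 on chromosome 17. On chromosome 17 the commonest KAP1 distance was a short one, 3257 bp with 49 pairs. KAP1 regions in repeated runs of either order were 20.6% on chromosome 4, 27.7% on chromosome 7, 8.25% on chromosome 12 and 21.8% on chromosome 17, so repeated spacing was not particular to the chromosome 4 block. These blocks were chosen with earlier results known and their differences were not tested.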

How the data were processed

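The authors deposited 1 list of regions per library, with chromosome, start and end and, as tested on the lists, a width of 150 bp throughout. Per the submitters' processing notes, Bowtie and build mm9 were used. Which peak caller and threshold were used, how multiply mapping reads were handled and whether a control was subtracted: none is given in the sources used here. Members and settings were chosen with earlier results of these data known. Starts are printed counted from 1. Overlap was counted from 1 bp and was identical to bedtools 2.31.1 for 6 ordered pairs of lists. Shares carry exact (Clopper-Pearson) and counts exact Poisson 95% intervals, both for counting error only. Region pairs in runs were joined when their offsets differed by at most 500 bp and their first starts by at most 60 kb, and 1 shift of up to 60 bp per list was fitted to each copy pair. The code was tested on simulated lists. Regions were named by rule: the 5 steps, distances and empty parts highest in their measure. Copy pairs and other single regions were chosen after their values were seen. Gene names come from the RefSeq table of GRCm38.p6, and sequences of build mm9 were not used here. Values were computed in Python 3.11.15 with scipy 1.17.1, numpy 2.4.6 and pandas 2.3.3, and plotted with matplotlib 3.10.9.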

Additional observations from a re-analysis of the deposited data

How the results depend on the processing

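No paired analysis was possible because there is 1 sample per group, and no replicate could be left out. Without a score in the lists, stricter thresholds could not be tried. Values without the second stretch of the leading copy pair and over the first 22 steps were added after seeing the data. The ratio of KAP1 to control regions ranged from 1.28 to 1.42 over its 6 alternatives, inside its interval, and the share of steps with more KAP1 than control regions from 68.3% to 75.9%. By Mb the block held 675, 661 and 112 KAP1, 564, 508 and 81 ZFP57 and 526, 466 and 80 control regions, fewer by construction. The share of KAP1 regions without the other lists was 28.9% with any gap above overlap, 11.5% beyond 500 bp and 6.98% beyond 1 kb, and 18.5% and 36.6% in the first and last Mb. The share in all 3 lists was 36.7% from 75 bp of overlap and 69.2% with midpoints within 500 bp. The commonest KAP1 distance had 33 pairs when exact, at 545355 bp, and 216 pairs within 50 bp, at 1173 bp. Without the second stretch it was 1153 bp, with 65 pairs. Repeated runs of the KAP1 list in the same order numbered 77, and 22 without the second stretch. Reversed runs numbered 25, and were 47 for runs of 3, 4 at a tolerance of 5 bp and 55 at 25 bp; the cause was not tested. Counts of the 3 lists cannot be separated from the libraries' depth and threshold, which are unknown.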
